A study of Arabidopsis thaliana with 12 samples.

Results

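Leaf-only genes are here nuclear genes of Arabidopsis thaliana with at least 20 FPKM in rosette leaves and under 1 FPKM in each of the 3 other groups of the study. FPKM scales the sequenced fragments of a gene by transcript length and by library size, so levels can be compared between genes. The rule found 111 of the 33559 genes in the table, which is 1.18% of the 9432 nuclear genes that reached 20 FPKM in leaves. Of these, 101 code for proteins, 5 are tRNA genes, 2 are microRNA loci, 2 are other noncoding RNA genes and 1 is a transcribed pseudogene. The values themselves chose the genes, so the levels below are a description without a test.

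The study made 12 libraries, 3 per group, from plants in the Landsberg erecta (Ler) background. Flowering wild-type plants gave the rosette leaves. Apices came from 35S::AP1-GR ap1 cal plants before treatment (day 0) and 2 days after 10 µM dexamethasone (day 2). The last of the 4 groups was main inflorescences of wild-type plants without flowers older than stage 12. In this line the viral 35S promoter, active in most tissues, drives the floral regulator APETALA1 joined to a glucocorticoid receptor domain that dexamethasone activates, and the ap1 cal double mutant forms cauliflower-like masses of meristems. Leaves and apices therefore differ in tissue and genotype together, while leaves and inflorescences share the wild-type genotype. The deposited table held a single value per gene and group, with the libraries already merged. No value below has a standard deviation or a replicate check, and the spread between libraries is unknown.

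Mature leaves are the main photosynthetic organ and are exposed to microbes and insects over a long life. Plants detect microbes with receptors at the cell surface and inside the cell, and answer with antimicrobial proteins and toxic small molecules. Salicylic acid is the hormone mainly tied to defence against microbes that live on living tissue, while jasmonate and ethylene act against insects and microbes that kill tissue. Crucifers also store glucosinolates, sulfur compounds that become toxic when tissue is damaged.

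A gene was called higher or lower between 2 groups when log2 of (FPKM + 1) differed by at least 1 and the higher group had at least 5 FPKM. By this rule the leaf label fitted its photosynthesis markers apart from 1 gene against the apices. Of 27 photosynthesis and photorespiration genes, 26 were higher in leaves than in each kind of apex, among them RCA, which encodes Rubisco activase, at 3862 FPKM in leaves against 259 FPKM at day 0. Against inflorescences, 22 of the 27 were higher. The gene that was lower in leaves in all 3 comparisons was RBCS1A, a Rubisco small subunit gene, listed at 0 in leaves but at 2493 FPKM at day 0, 2029 FPKM at day 2 and 8661 FPKM in inflorescences. A value of 0 in this table is therefore given only as listed at 0. Of 8 shoot meristem and flower genes, none was higher in leaves, and the highest leaf value was 1.99 FPKM for SEP3. The companion cell gene SUC2 stood at 378 FPKM in leaves and the guard cell gene KAT1 at 42.4 FPKM, so markers of vascular and epidermal cells were present too. All 4 companion cell genes of the list were higher in leaves than in each other group, as were 4 of 5 guard cell genes against the apices at each day and 5 of 5 against inflorescences. The background of all these lists was 22289 genes with at least 1 FPKM in any group. Of these, 23%, 23.9% and 18.9% were higher in leaves than at day 0, at day 2 and in inflorescences. The root genes RHD6, LRL3 and CASP1 were at most 0.0313 FPKM in leaves, while SCR, which is also used in shoots, stood at 18.0 FPKM. In whole organs, fewer cells of a type and less RNA per cell cannot be told apart.

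Leaf levels of the 111 genes ran from 20.4 to 259 FPKM with a median of 37.2 FPKM. The median of all nuclear genes at 20 FPKM or more in leaves was 49.9 FPKM, so the leaf-only genes lay somewhat lower, and their sum was 0.438% of all leaf FPKM. At least 100 FPKM was reached by 12 of them and at least 50 FPKM by 33. Their medians in the other groups were 0.0836 FPKM at day 0, 0.0783 FPKM at day 2 and 0.319 FPKM in inflorescences. For the 101 coding genes the ratio of the leaf value to the highest other value had a median of 102 and ran from 20.5 to 8249.

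Inflorescences held the highest of the 3 other values for 78 of the 101 coding genes, day-0 apices for 14 and day-2 apices for 9. The inflorescence value was above the day-0 value in 85 of the 101 and above the day-2 value in 88. Between the apices, the day-2 value was lower than the day-0 value in 62 genes, higher in 35 and equal in 4. All these values lie below 1 FPKM by the rule. Values highest in inflorescences were general among coding genes at such low levels. Inflorescences were highest in 77.2% of the leaf-only coding genes, against 75.999% of the 4704 other coding genes whose highest value outside leaves was above 0 and under 1 FPKM. The inflorescence value was above the day-0 value in 84.2% of the leaf-only coding genes, against 79.4% of those 4704. It was above the day-2 value in 87.1%, against 82.1%. Inflorescences were highest in 48.2% of the 9134 other coding genes at 20 FPKM or more in leaves, most of which had at least 1 FPKM elsewhere. The place of inflorescences in these counts thus shows nothing particular to the leaf-only genes. The split between day 2 and day 0 itself was not compared with other genes. Day-0 apices were highest in 13.9% of the leaf-only coding genes, against 13.8% of the 4704 other low coding genes. Day-2 apices were highest in 8.91%, against 10.2%, so these shares lay near that background. The limit in inflorescences was also the one that most often kept a gene out. Of nuclear genes at 20 FPKM or more in leaves, 230 missed the rule through inflorescences alone, 11 through day 0 alone and 2 through day 2 alone.

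**Figure D1:**
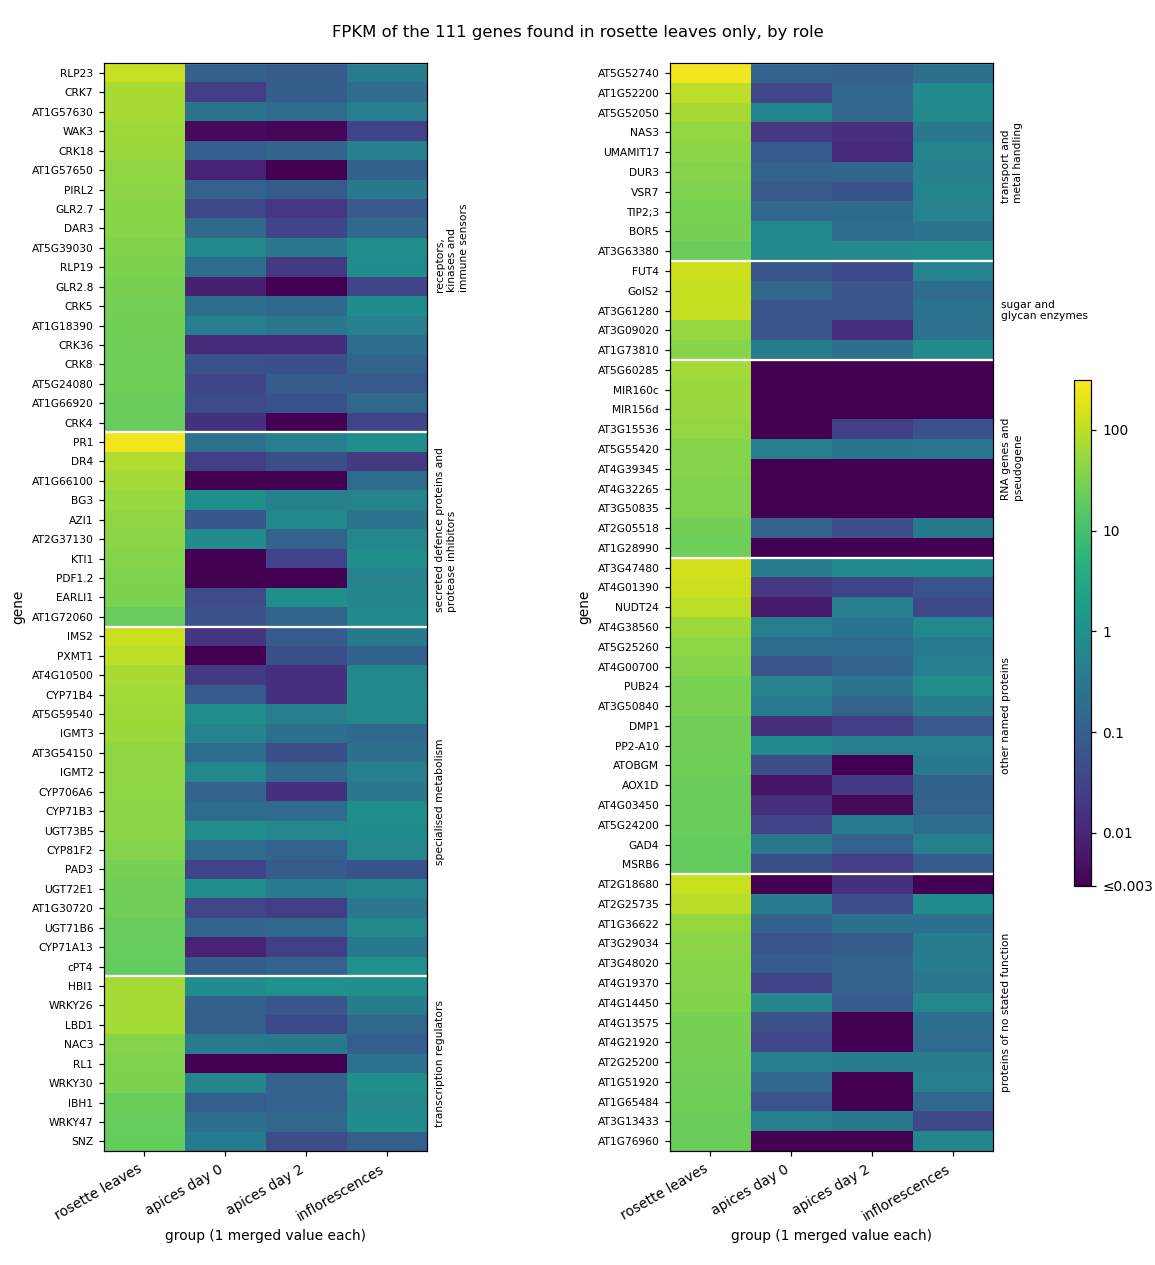
FPKM of all 111 leaf-only genes (rows, grouped by role and ordered by leaf level) in the 4 groups (columns), on a log colour scale on which values of 0.003 FPKM or less are drawn as 0.003. The leaf column is bright throughout, from 20.4 to 259 FPKM, and 7 genes among the RNA genes are listed at 0 in every other column.

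All 111 leaf-only genes were called higher in leaves against each other group, which the rule that chose them fixes. Of the 22289 genes with at least 1 FPKM in any group, 23% were called higher in leaves than in day-0 apices, 23.9% higher than in day-2 apices and 18.9% higher than in inflorescences, and 16.6% were higher than in all 3. On the lower side stood 16.3%, 16.4% and 17.1% of the genes in these comparisons. The median log2 difference of the leaf-only genes was 5.08 against day 0, 5.11 against day 2 and 4.85 against inflorescences, and the medians of all genes were 0.07, 0.08 and -0.03. Higher calls made up 58.5%, 59.3% and 52.5% of all calls as deposited. After the groups were brought to the same upper quartile they made up 45.8%, 47.5% and 31.9%, since that scaling shifted the median of all genes by -0.15, -0.15 and -0.46. All 111 genes remained called higher in each comparison under it, which their selection fixes too.

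Receptors, kinases and other possible immune sensors made up 19 genes between 21.2 and 121 FPKM in leaves. Specialised metabolism made up 18. Roles were assigned after the genes were seen, so the order of these class sizes depends on that choice. RLP23 (AT2G32680), the receptor-like protein that binds a peptide shared by many microbial toxins of the NLP family, stood at 121 FPKM in leaves, against 0.106 FPKM at day 0, 0.0879 FPKM at day 2 and 0.403 FPKM in inflorescences. Its relative RLP19 (AT2G15080) stood at 32.8 FPKM in leaves, against 0.197 FPKM at day 0, 0.0211 FPKM at day 2 and 0.815 FPKM in inflorescences. Of 52 genes with an RLP symbol, 10 reached 20 FPKM in leaves, and the 8 that were not leaf-only had at least 1 FPKM elsewhere. RLP34, at 41.1 FPKM in leaves, missed the rule at 2.40 FPKM in inflorescences alone.

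WAK3 (AT1G21240), a kinase anchored in the cell wall, stood at 57.9 FPKM in leaves, 0.00410 FPKM at day 0, 0.00344 FPKM at day 2 and 0.0303 FPKM in inflorescences. Its ratio of 1912 to the highest other group was among the highest of the coding genes. WAK3 shared 12.4% of its 50-base stretches with other genes, most with AT1G21245, so its value is uncertain. WAK1, from the same family, had 337 FPKM in leaves but also 30.5 FPKM at day 0 and 19.2 FPKM in inflorescences. The kinase genes AT5G39030 at 34.9 FPKM, AT1G18390 at 26.8 FPKM, AT5G24080 at 24.1 FPKM and AT1G66920 at 22.5 FPKM in leaves completed the kinases outside the CRK family. AT5G39030 came close to the limit, with 0.693 FPKM at day 0 and 0.961 FPKM in inflorescences.

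Cysteine-rich receptor-like kinases (CRK) carry pairs of a cysteine motif outside the cell and a kinase inside it. The 6 leaf-only members were CRK7 at 73.0 FPKM, CRK18 at 55.5 FPKM, CRK5 at 27.7 FPKM, CRK36 at 25.7 FPKM, CRK8 at 25.0 FPKM and CRK4 at 21.2 FPKM in leaves. CRK5 had the highest value elsewhere, 0.842 FPKM in inflorescences, and CRK4 the lowest maximum, 0.0321 FPKM. In CRK7 the 4 groups stood at 73.0 FPKM in leaves, 0.0242 FPKM at day 0, 0.0894 FPKM at day 2 and 0.192 FPKM in inflorescences.

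CRK5, CRK7, CRK8 and CRK18 lie in a row of related genes on chromosome 4 that holds 18 genes with a CRK symbol. In all 18 the leaf value was the highest of the 4 groups, and 8 reached 20 FPKM in leaves. For the 4 leaf-only genes the selection rule fixes both. The leaf value was also highest in 37 of 52 genes with an RLP symbol. In families described below, it was highest in 44 of 67 genes with a WRKY symbol and 11 of 16 with a GLR symbol. These families also hold leaf-only genes, 2 RLP, 3 WRKY and 2 GLR genes, for which the rule fixes this. How often leaves were highest over all genes was not counted. By the stricter rule of size, 16.6% of the 22289 genes compared were higher in leaves than in all 3 other groups. Within the row, CRK10 was the most abundant at 251 FPKM in leaves. It was also found elsewhere, at 34.5 FPKM at day 0, 15.8 FPKM at day 2 and 32.3 FPKM in inflorescences. CRK16 at 30.7 FPKM in leaves missed the rule narrowly, with 1.11 FPKM at day 2 and 1.75 FPKM in inflorescences. CRK19 at 32.7 FPKM in leaves missed the rule through inflorescences alone, at 1.23 FPKM. CRK6 stood at 16.7 FPKM and CRK23 at 12.7 FPKM in leaves, with at most 0.217 FPKM elsewhere, and missed it on the leaf level alone. CRK12 was the only gene of the row under 1 FPKM in leaves, at 0.934 FPKM. CRK8 shared 14.2% of its 50-base stretches with other genes, most with CRK6, so its value is uncertain.

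**Figure D2:**
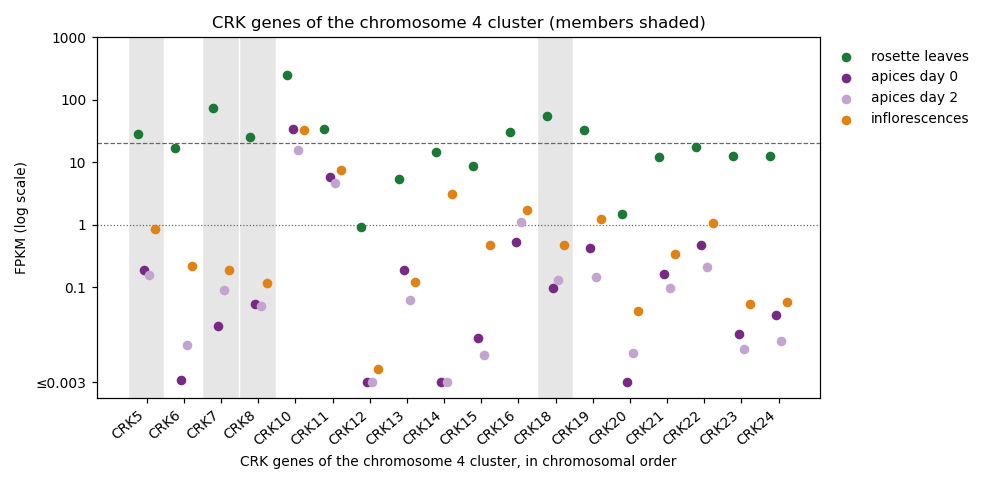
FPKM (log axis, values of 0.003 or less drawn as 0.003) of the 18 CRK genes of the chromosome 4 row in chromosomal order, with 1 point per group. The 4 leaf-only genes are shaded, the dashed line marks 20 FPKM and the dotted line 1 FPKM, and the leaf point is the highest in every gene.

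GLR2.7 (AT2G29120) and GLR2.8 (AT2G29110) encode channels of the glutamate receptor-like family, which carry calcium into the cell. GLR2.7 stood at 40.1 FPKM in leaves, 0.0368 FPKM at day 0, 0.0188 FPKM at day 2 and 0.0820 FPKM in inflorescences. GLR2.8 stood at 30.0 FPKM in leaves, 0.00819 FPKM at day 0, 0.0030 FPKM at day 2 and 0.0334 FPKM in inflorescences. They are neighbours on chromosome 2, and GLR2.9 beside them had 3.16 FPKM in leaves and at most 0.0185 FPKM elsewhere. Of the 16 genes with a GLR symbol, only these 2 reached 20 FPKM in leaves. Inside the cell, AT1G57630, with a TIR domain as found in many plant immune receptors, stood at 68.2 FPKM in leaves and at most 0.422 FPKM elsewhere. Its neighbour AT1G57650, annotated as an ATP-binding protein, stood at 46.0 FPKM in leaves, 0.00966 FPKM at day 0 and 0.108 FPKM in inflorescences, and was listed at 0 at day 2. The class also held PIRL2, a Ras-group-related leucine-rich repeat gene, at 42.3 FPKM and DAR3 at 39.8 FPKM in leaves.

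Secreted defence proteins and protease inhibitors made up 10 genes. PR1 (AT2G14610), the classic marker of salicylic acid defence, came next to the top of all 111 genes with 249 FPKM in leaves, 0.225 FPKM at day 0, 0.450 FPKM at day 2 and 0.913 FPKM in inflorescences. The thionin-related gene AT1G66100 stood at 62.6 FPKM in leaves and 0.179 FPKM in inflorescences and was listed at 0 in the apices at both days. BG3 (AT3G57240), a beta-1,3-glucanase gene, stood at 53.2 FPKM in leaves against 0.972 FPKM at day 0, 0.476 FPKM at day 2 and 0.537 FPKM in inflorescences. PDF1.2 (AT5G44420), a defensin gene used as a marker of jasmonate and ethylene signalling, stood at 34.5 FPKM in leaves, was listed at 0 at day 0 and day 2, and stood at 0.503 FPKM in inflorescences. Markers of both hormone routes were thus among the leaf-only genes.

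AZI1 (AT4G12470), a lipid transfer protein gene needed for priming of systemic defence, stood at 46.8 FPKM in leaves, 0.0667 FPKM at day 0, 0.655 FPKM at day 2 and 0.256 FPKM in inflorescences. Its neighbour and relative EARLI1 (AT4G12480) stood at 32.8 FPKM in leaves, 0.0421 FPKM at day 0, 0.952 FPKM at day 2 and 0.594 FPKM in inflorescences. In both genes day 2 was the highest of the 3 other groups, which was so for 9 of the 101 coding genes. AT4G12490, next in the row, had 12.2 FPKM in leaves and 2.39 FPKM in inflorescences. Among inhibitors of proteases, which slow digestion by insects or limit the plant's own proteases, DR4 (AT1G73330) stood at 79.3 FPKM, KTI1 (AT1G73260) at 36.2 FPKM and AT1G72060 at 21.6 FPKM in leaves. DR4 had at most 0.0491 FPKM elsewhere, and KTI1 reached 0.953 FPKM in inflorescences. The peroxidase gene AT2G37130 stood at 42.9 FPKM in leaves and at 0.783 FPKM at day 0.

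Specialised metabolism contributed 18 genes, and several act in 1 pathway from tryptophan. CYP71A13 (AT2G30770) and PAD3 (AT3G26830) are cytochrome P450 genes for a middle and the last part of the synthesis of camalexin, the main antimicrobial indole compound of Arabidopsis. CYP71A13 stood at 21.5 FPKM in leaves, 0.00927 FPKM at day 0, 0.0259 FPKM at day 2 and 0.323 FPKM in inflorescences. PAD3 stood at 29.4 FPKM in leaves, 0.0309 FPKM at day 0, 0.0783 FPKM at day 2 and 0.0547 FPKM in inflorescences. CYP81F2 (AT5G57220), which hydroxylates an indole glucosinolate, stood at 36.6 FPKM in leaves, 0.186 FPKM at day 0, 0.113 FPKM at day 2 and 0.652 FPKM in inflorescences.

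IGMT enzymes methylate the product of CYP81F2. IGMT3 (AT1G21110) stood at 55.5 FPKM in leaves, 0.568 FPKM at day 0, 0.211 FPKM at day 2 and 0.155 FPKM in inflorescences. IGMT2 (AT1G21120) stood at 45.6 FPKM in leaves, 0.675 FPKM at day 0, 0.162 FPKM at day 2 and 0.419 FPKM in inflorescences. Of their 50-base stretches, 42.6% and 34.3% also occur in another gene, so reads could be divided between these neighbours and their separate values are uncertain. In the same row on chromosome 1, IGMT4 had 379.9 FPKM in leaves and 3.29 FPKM at day 0, and IGMT1 had 12.5 FPKM in leaves and at most 0.123 FPKM elsewhere.

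In the list of 10 camalexin and indole glucosinolate genes, 9 were higher in leaves than in each other group and none was lower. Over all genes compared, 23%, 23.9% and 18.9% were higher in leaves than at day 0, at day 2 and in inflorescences. The list's median log2 difference was 4.94 against day 0, 4.95 against day 2 and 4.47 against inflorescences, beside 0.07, 0.08 and -0.03 over all genes. As in the lists below, the selection rule fixed the calls of the leaf-only genes, here 4 of the 9, and they enter the medians. The 4 leaf-only genes of the list are CYP71A13, PAD3, CYP81F2 and IGMT2, and the earlier enzymes of the pathway missed the rule. CYP79B2 and CYP79B3, which open it, stood at 48.4 and 84.0 FPKM in leaves and reached 3.09 and 2.54 FPKM in inflorescences. CYP83B1, the entry to the glucosinolate branch, had 438 FPKM in leaves and 19.5 FPKM in inflorescences. CYP71A12, a close copy of CYP71A13, differed from it with 4.11 FPKM in leaves and 2.55 FPKM at day 0.

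IMS2 (AT5G23020, also called MAM3), which extends the carbon chain of aliphatic glucosinolates, stood at 124 FPKM in leaves, 0.0171 FPKM at day 0, 0.0821 FPKM at day 2 and 0.321 FPKM in inflorescences. Of the 15 genes in the aliphatic glucosinolate and myrosinase list, 14 were higher in leaves than at day 0, 14 higher than at day 2 and 11 higher than in inflorescences, and none was lower. Over all genes compared, 23%, 23.9% and 18.9% were higher in leaves in these comparisons. IMS2 was the only leaf-only gene of the list. MAM1 at 144 FPKM, BCAT4 at 302 FPKM and CYP79F1 at 129.97 FPKM in leaves had under 1 FPKM in the apices but 2.92, 3.62 and 3.33 FPKM in inflorescences. Among myrosinases, which release the toxin, TGG1 had 847 FPKM in leaves and 876 FPKM in inflorescences.

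The other cytochrome P450 genes were CYP71B4 at 64.1 FPKM, CYP706A6 at 43.3 FPKM and CYP71B3 at 43.2 FPKM in leaves. CYP71B3 reached 0.958 FPKM in inflorescences. UDP-glucosyltransferases attach glucose to small molecules, and UGT73B5 stood at 41.7 FPKM, UGT72E1 at 25.5 FPKM and UGT71B6 at 21.7 FPKM in leaves. UGT71B6 can glucosylate abscisic acid and UGT72E1 phenolic precursors of lignin. PXMT1, of the SABATH methyltransferases, stood at 100.1 FPKM in leaves and at most 0.109 FPKM elsewhere. AT4G10500 encodes an oxygenase that hydroxylates salicylic acid and so lowers it. It stood at 73.8 FPKM in leaves, 0.0210 FPKM at day 0, 0.0145 FPKM at day 2 and 0.636 FPKM in inflorescences.

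PR1 and AT4G10500 were the leaf-only genes of the 35 salicylic acid and systemic resistance genes. Of the 35, 25 were higher in leaves than at day 0, 28 higher than at day 2 and 28 higher than in inflorescences. Lower in leaves were none, none and 1. The median log2 differences were 2.72, 3.01 and 2.52. Over all genes compared, 23%, 23.9% and 18.9% were higher in leaves, with medians of 0.07, 0.08 and -0.03. Several markers were far above PR1 in leaves but passed the limit of 1 FPKM in another group. BGL2 (PR2), another beta-1,3-glucanase gene, had 1726 FPKM in leaves, 1.33 FPKM at day 0, 2.11 FPKM at day 2 and 2.01 FPKM in inflorescences. PCC1 had 792 FPKM in leaves and 29.0 FPKM in inflorescences, and LURP1 had 699 FPKM in leaves and 12.3 FPKM in inflorescences. Other genes of the list had high values in all 4 groups. WRKY70 stood at 296 FPKM in leaves, 196 FPKM at day 0, 78.9 FPKM at day 2 and 154 FPKM in inflorescences, and EDS1 stood at 88.0 FPKM in leaves against 21.3 to 23.7 FPKM in the other groups. NIMIN1, a repressor that binds the salicylic acid receptor NPR1, was the gene lower in leaves, at 11.2 FPKM against 28.1 FPKM in inflorescences.

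**Figure D3:**
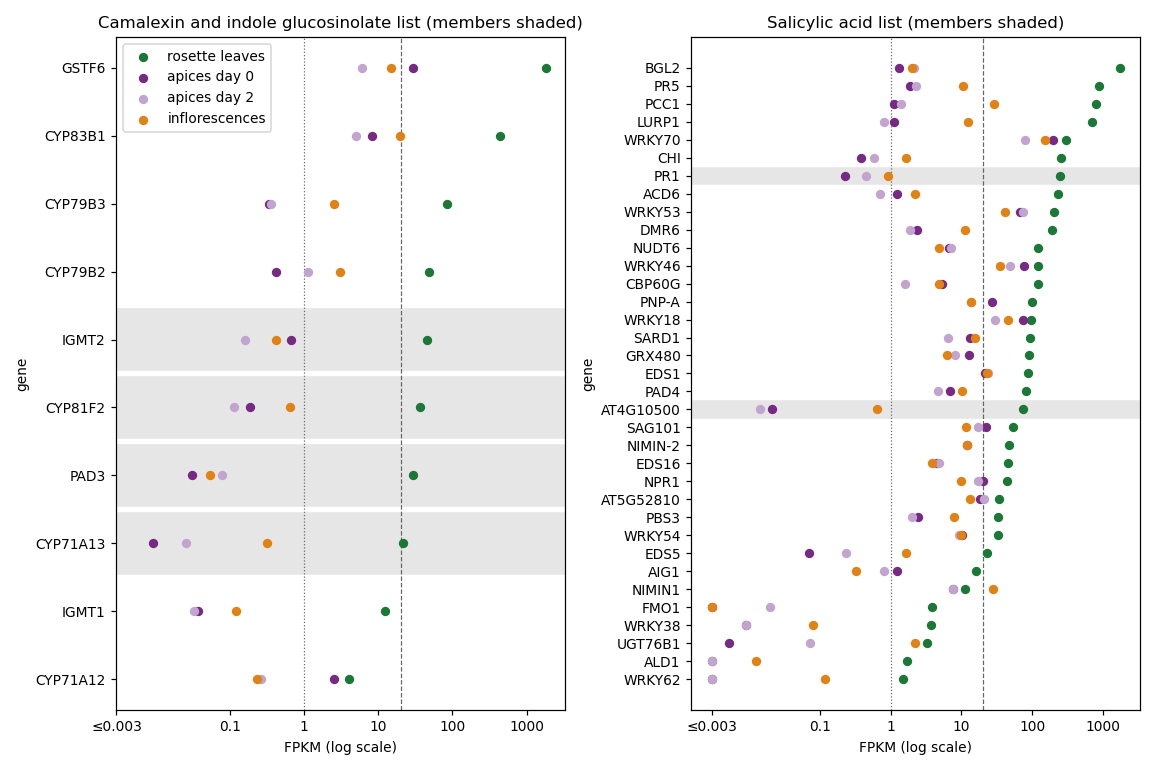
FPKM (log axis, values of 0.003 or less drawn as 0.003) of the 10 camalexin and indole glucosinolate genes (left) and the 35 salicylic acid genes (right), ordered by leaf level, with 1 point per group. Leaf-only genes are shaded, the dashed line marks 20 FPKM and the dotted line 1 FPKM, and genes such as WRKY70 have all 4 points to the right of both lines.

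PDF1.2 was the leaf-only gene of the 15 jasmonate and ethylene defence genes, of which 8 were higher in leaves than at day 0, 9 than at day 2 and 8 than in inflorescences. Lower in leaves were 2, 2 and 3 of them. VSP1, a jasmonate-responsive vegetative storage protein gene, was lower in leaves in all 3 comparisons, at 72.1 FPKM in leaves against 1010.2 FPKM at day 0, 1229 FPKM at day 2 and 1345 FPKM in inflorescences. PDF1.2b had 12.6 FPKM in leaves and 0.217 FPKM in inflorescences and missed the rule on its leaf level. None of the 22 leaf senescence genes was leaf-only, although of the 21 compared 17 were higher in leaves than at day 0, 18 than at day 2 and 16 than in inflorescences, with 3 lower in the last comparison. The closest was SAG13 at 139 FPKM in leaves, 0.0220 FPKM at day 0, 0.161 FPKM at day 2 and 1.20 FPKM in inflorescences. SAG12, a marker of late senescence, stood at 0.0465 FPKM in leaves and 1.23 FPKM in inflorescences. The kinase list with CRK and WAK genes had 6 leaf-only genes of 17, and 14 of its 15 compared genes were higher in leaves in each comparison. The selection rule fixed 6 of these 14 calls. In the EARLI1 list 2 of 6 were leaf-only, and 3 of its 4 compared genes were higher in leaves in each comparison. There the selection rule fixed 2 of the 3 calls. Over all genes compared, 23%, 23.9% and 18.9% were higher in leaves than at day 0, at day 2 and in inflorescences.

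Transcription regulators numbered 9, between 20.9 and 66.6 FPKM in leaves. WRKY proteins bind the W-box and act in many defence responses. WRKY26 (AT5G07100) stood at 66.4 FPKM in leaves, 0.105 FPKM at day 0, 0.0632 FPKM at day 2 and 0.393 FPKM in inflorescences. WRKY30 (AT5G24110) stood at 32.6 FPKM in leaves, 0.576 FPKM at day 0, 0.113 FPKM at day 2 and 0.957 FPKM in inflorescences, and WRKY47 (AT4G01720) at 21.2 FPKM in leaves and at most 0.840 FPKM elsewhere. Of 67 genes with a WRKY symbol, 26 reached 20 FPKM in leaves and 23 of these were also found elsewhere. WRKY25 came close at 105 FPKM in leaves and between 1.04 and 1.76 FPKM in the other groups.

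HBI1 (AT2G18300), a bHLH factor that promotes cell elongation and restrains immunity, stood at 66.6 FPKM in leaves, 0.7995 FPKM at day 0, 0.999 FPKM at day 2 and 0.973 FPKM in inflorescences. It was the gene nearest to the limit. IBH1 (AT2G43060), which binds HBI1 and blocks it, stood at 24.0 FPKM in leaves, 0.0979 FPKM at day 0, 0.113 FPKM at day 2 and 0.776 FPKM in inflorescences. A factor and its inhibitor were thus in the same class. LBD1 stood at 66.3 FPKM, NAC3 (AT3G29035), of the NAC factors, at 37.2 FPKM and the RADIALIS-like gene RL1 at 34.1 FPKM in leaves. NAC3 has AT3G29034 beside it, a leaf-only gene of no stated function at 43.0 FPKM in leaves and at most 0.380 FPKM elsewhere. SNZ (AT2G39250), an AP2-type repressor of flowering, stood at 20.9 FPKM in leaves, 0.360 FPKM at day 0, 0.0457 FPKM at day 2 and 0.101 FPKM in inflorescences.

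Transport and metal handling gave 10 genes, with the highest leaf value of all 111. AT5G52740, annotated as a copper transport family protein, stood at 259 FPKM in leaves, 0.115 FPKM at day 0, 0.103 FPKM at day 2 and 0.215 FPKM in inflorescences. NAS3, a synthase of the metal chelator nicotianamine, stood at 48.8 FPKM in leaves and at most 0.306 FPKM elsewhere. Nitrogen carriers were DUR3, a urea transporter, at 36.9 FPKM, UMAMIT17, of a family of amino acid transporters, at 41.5 FPKM and the vacuolar aquaporin TIP2;3, which also passes ammonia, at 30.3 FPKM in leaves. TIP2;3 had 0.145 FPKM at day 0, 0.167 FPKM at day 2 and 0.502 FPKM in inflorescences. BOR5, of the boron transporter family, stood at 30.1 FPKM in leaves and 0.660 FPKM at day 0. AT1G52200, of the PLAC8 family, stood at 99.6 FPKM and the MATE efflux gene AT5G52050 at 70.4 FPKM in leaves, with 0.802 and 0.765 FPKM in inflorescences.

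Among 5 sugar and glycan enzymes, GolS2 (AT1G56600), which makes galactinol for the raffinose sugars formed under drought, stood at 117 FPKM in leaves, 0.139 FPKM at day 0, 0.0647 FPKM at day 2 and 0.186 FPKM in inflorescences. FUT4, a fucosyltransferase of arabinogalactan proteins, stood at 129 FPKM and the glucosyltransferase-like gene AT3G61280 at 112 FPKM in leaves, with 0.506 and 0.257 FPKM in inflorescences. Their class had the highest median leaf level, 112 FPKM, against 43.3 FPKM in specialised metabolism and 34.9 FPKM in receptors. Inflorescences were the highest other group in all 5, as in 77.2% of all leaf-only coding genes.

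Among 16 other named proteins, the calcium-binding EF-hand gene AT3G47480 stood at 144 FPKM in leaves and 0.838 FPKM in inflorescences. The TRAF-like gene AT4G01390 stood at 128 FPKM in leaves and at most 0.0589 FPKM elsewhere, a ratio of 2172. NUDT24, a nudix hydrolase gene, stood at 100.2 FPKM in leaves, 0.00702 FPKM at day 0, 0.429 FPKM at day 2 and 0.0380 FPKM in inflorescences. PUB24, a ubiquitin ligase that dampens immune signalling, stood at 31.0 FPKM and AOX1D, an alternative oxidase of mitochondria, at 24.0 FPKM in leaves. Proteins of no stated function made up 14 genes between 23.2 and 118 FPKM in leaves. AT2G18680 had the highest ratio of all, 8249, at 118 FPKM in leaves and 0.0143 FPKM at day 2, and was listed at 0 at day 0 and in inflorescences. Of its 50-base stretches, 15.0% also occur in another gene, mostly AT2G18670, which overlaps it on the same strand, so its value is uncertain. AT2G25735 stood at 97.1 FPKM in leaves and 0.829 FPKM in inflorescences.

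The RNA genes behaved differently from the coding genes in 1 respect. Exactly 7 of the 111 genes were listed at 0 in all 3 other groups, and these were the 5 tRNA genes and 2 microRNA loci, all under 200 nt. No coding gene was, although 14 were listed at 0 in at least 1 group. The tRNA genes were AT5G60285 (leucine) at 62.7 FPKM, AT4G39345 (histidine) at 36.2 FPKM, AT4G32265 (arginine) at 33.7 FPKM, AT3G50835 (valine) at 33.3 FPKM and AT1G28990 (proline) at 25.0 FPKM in leaves. AT4G39345 and AT4G32265 share 100% of their 50-base stretches with other tRNA genes. Of 623 tRNA genes in the table, the leaf value was above 0 for 17 and the day-0 value for 22, while day 2 and inflorescences each had 19. Exactly 1 group had a value above 0 for 13 of them. Values of such short RNAs are uncertain in libraries selected for poly(A) and read for 50 cycles.

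MIR160c (AT5G46845) stood at 55.7 FPKM and MIR156d (AT5G10945) at 54.0 FPKM in leaves. In plants miR160 guides the cleavage of RNAs of auxin response factors, and miR156 that of SPL factors, which promote the change to adult leaves and flowering. The table measures the locus and not the mature microRNA. AT5G10946 overlaps MIR156d on the same strand, so the MIR156d value is uncertain. The mature 5p sequences are shown because they name which microRNA each locus encodes. They were read from RefSeq assembly TAIR10.1 at chr5:19009158-19009178 and chr5:3456713-3456732, both on the minus strand, with the seed (bases 2 to 8) in capitals. The seeds differ between the loci.
miR160c-5p: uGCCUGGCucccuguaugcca
miR156d-5p: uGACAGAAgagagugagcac

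The other RNA genes were the noncoding genes AT3G15536 at 48.4 FPKM and AT2G05518 at 26.5 FPKM in leaves, and the pseudogene AT5G55420 of a lipid transfer protein at 36.7 FPKM. Applied to the other groups, the same rule gave 258 genes for inflorescences, 4 for day-2 apices and 2 for day-0 apices. Of the 252 coding genes in the inflorescence set, 17 were listed at 0 in all other groups, against none of the 101 in leaves. The day-2 set held only 1 coding gene, which was listed so, and the day-0 set held no coding gene.

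Features that the rule did not use were then compared with the 9134 other coding genes at 20 FPKM or more in leaves and with all 26693 coding genes of the table, without a test. By annotation, 6 of the 101 coding genes (5.94%) were cysteine-rich receptor-like kinases, against 12 (0.131%) of the other leaf genes and 46 (0.172%) of all. Cytochrome P450 genes were 6 (5.94%), against 49 (0.536%) and 253 (0.948%). WRKY factors were 3 (2.97%), against 23 (0.252%) and 71 (0.266%), and UDP-glucosyltransferases 3 (2.97%), against 42 (0.460%) and 146 (0.547%). The word kinase stood in the annotation of 13 (12.9%), RLP19 and RLP23 included, against 635 (6.95%) and 1765 (6.61%). Only families that hold leaf-only genes were counted, so these family shares are a description and not independent support. Neighbouring copies such as CRK7 and CRK8 were counted separately. The median transcript length was 1540 nt, against 1638 nt and 1541 nt. Transcripts of a single exon were 24.8%, against 12.1% and 20.6%.

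Along the chromosomes, 12 of the 101 coding genes had another leaf-only gene as their direct coding neighbour. They formed 6 pairs, namely IGMT3 with IGMT2, AT1G57630 with AT1G57650, GLR2.8 with GLR2.7, AT3G29034 with NAC3, AZI1 with EARLI1, and CRK7 with CRK8. This is 11.9% of the leaf-only coding genes. By the same count, 26 of the 252 coding genes found in inflorescences only (10.3%) lay beside another gene of their set, which is larger. With 1 further coding gene allowed between them, CRK5 joined the last pair of leaf-only genes. The genes around a pair need not share the pattern. Beside AT1G57650, AT1G57660 had 95.1 FPKM in leaves, 425 FPKM at day 0 and 206 FPKM in inflorescences.

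The promoters were searched because the class held many defence genes and 3 WRKY factors. In the 250 bases before the annotated gene start, TTGACC or TTGACT, the usual W-box, was found on either strand in 45 of the 101 leaf-only genes (44.6%), against 28.3% of the other leaf genes and 28.5% of all coding genes. The core TTGAC, which the W-box contains, was found in 60 (59.4%), against 45.05% and 44.96%. At least 2 copies of it were found in 34 (33.7%), against 14.3% and 14.2%. The TATA box TATAAA was found in 56.4%, against 45.6% and 47.7%. Other motifs were closer to their background. TGACG, bound by TGA factors, was found in 21.8%, against 19.99% and 18.6%. The G-box CACGTG was found in 4.95%, against 8.17% and 6.58%, and the evening element AAATATCT in 5.94%, against 5.49% and 4.84%. In 1000 bases the W-box shares were 77.2%, against 67.2% and 67.4%, and the core shares 89.1%, against 87.9% and 88.2%, so the shares differed less in the longer window. The evening element was found in 23.8% of the leaf-only genes there, against 15.7% and 15.4%. A match is only a run of letters, and TTGAC and TGACG can overlap. Neighbouring copies of a gene may share promoter sequence and are not independent.

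**Figure D4:**
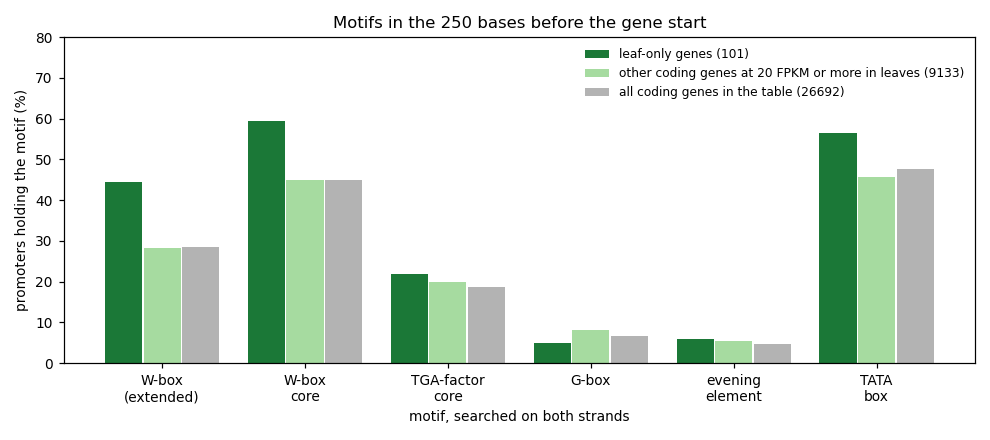
Percentage of promoters (250 bases before the gene start, both strands) that hold each of 6 motifs, for the 101 leaf-only coding genes, the 9133 other coding genes at 20 FPKM or more in leaves and all 26692 coding genes with a full window. The leaf-only bars are highest for both W-box forms (44.6% and 59.4%) and for the TATA box (56.4%), and the G-box bar is the lowest of its 3.

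The promoters with the most copies of the core show how the matches lie. Of the 101, 1 had 4 copies, 8 had 3, 25 had 2, 26 had 1 and 41 had none, PAD3 and PDF1.2 among the last. The gene with 4 copies, AT1G30720, an oxidoreductase of the berberine bridge enzyme family at 25.2 FPKM in leaves, is shown with the 4 genes with a symbol that had 3. Sequences run 5′ to 3′ along the gene's strand and end at the base before the annotated start in TAIR10.1, with TTGAC and its reverse complement GTCAA in capitals. The windows are chr1:10897675-10897924 (plus strand), chr4:12170081-12170330 (minus), chr3:9597928-9598177 (minus), chr5:8154711-8154960 (minus) and chr4:12120221-12120470 (minus), in the order of the lines. The reference is the Columbia strain, and Landsberg erecta may differ.
AT1G30720: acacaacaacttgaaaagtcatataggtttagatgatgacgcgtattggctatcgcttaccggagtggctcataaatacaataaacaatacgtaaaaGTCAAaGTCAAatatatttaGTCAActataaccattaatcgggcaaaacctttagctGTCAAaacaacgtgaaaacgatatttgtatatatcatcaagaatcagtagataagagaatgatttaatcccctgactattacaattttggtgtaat
CRK18: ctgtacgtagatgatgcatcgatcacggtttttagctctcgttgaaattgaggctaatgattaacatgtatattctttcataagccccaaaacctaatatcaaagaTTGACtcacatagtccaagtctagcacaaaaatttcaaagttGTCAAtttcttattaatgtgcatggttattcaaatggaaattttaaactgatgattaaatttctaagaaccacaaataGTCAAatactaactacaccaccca
CYP71B3: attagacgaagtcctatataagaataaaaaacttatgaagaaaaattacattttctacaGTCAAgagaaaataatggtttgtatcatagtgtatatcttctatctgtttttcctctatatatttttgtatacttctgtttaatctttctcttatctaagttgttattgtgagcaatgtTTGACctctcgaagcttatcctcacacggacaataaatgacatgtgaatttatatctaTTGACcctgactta
WRKY30: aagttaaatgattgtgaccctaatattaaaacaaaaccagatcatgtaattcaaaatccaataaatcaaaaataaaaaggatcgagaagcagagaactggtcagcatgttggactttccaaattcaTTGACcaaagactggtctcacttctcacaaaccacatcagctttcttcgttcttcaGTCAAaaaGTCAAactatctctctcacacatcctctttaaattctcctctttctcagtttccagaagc
CRK5: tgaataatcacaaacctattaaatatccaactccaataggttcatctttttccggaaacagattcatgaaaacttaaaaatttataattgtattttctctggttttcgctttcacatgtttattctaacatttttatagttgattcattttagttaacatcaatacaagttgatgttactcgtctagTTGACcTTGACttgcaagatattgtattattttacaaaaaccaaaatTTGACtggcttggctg

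In WRKY30 the copies start at positions -124, -68 and -60 from the gene start, and in AT1G30720 at -153, -147, -133 and -96. In CRK5 they start at -63, -57 and -16, and in CRK18, from the same row of kinases, at -144, -102 and -24. The copies of CYP71B3 start at -191, -72 and -14. CRK5 and CRK18 thus do not share the spacing of the copies.

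The thresholds cut through a continuous range. Just above 20 FPKM in leaves stood cPT4 at 20.4, MSRB6 at 20.7, GAD4 at 20.8, SNZ at 20.9 and CRK4 at 21.2 FPKM. Just below it, with under 1 FPKM elsewhere, stood AT5G02760 at 19.7, AT5G38250 at 19.5, WRKY55 at 19.5, AT4G12735 at 19.4 and IPT3, a cytokinin synthesis gene, at 19.3 FPKM. Nearest below 1 FPKM in their highest other group were HBI1 at 0.999, cPT4 at 0.997, BG3 at 0.972, AT5G39030 at 0.961 and CYP71B3 at 0.958 FPKM. Nearest above it were AT3G03000 at 1.03, AT3G16530 at 1.05, AT2G41730 at 1.05, AT5G66790 at 1.06 and AT5G38900 at 1.07 FPKM.

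Of the 111 genes, 80 shared no 50-base stretch with the transcripts of another gene, the read length per the labels, and 31 shared at least 1. More than 10% was shared by 12 genes, which were the 5 tRNA genes, IGMT3, IGMT2, AT2G18680, CRK8, AT1G66920, UGT73B5 and WAK3. A gene on the opposite strand overlapped 22 of the 111 and a gene on the same strand 8. The libraries kept strand information, but whether it was used in counting is not given in the sources used here.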

How the data were processed

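Poly(A) RNA of 12 samples (4 groups of 3) was sequenced from strand-specific libraries, per the labels' protocols. The FPKM values were deposited by the authors as 1 merged value per gene and group; the table does not name the unit, which was inferred because Cufflinks, a program that writes FPKM, is among the tools listed in the submitters' processing notes. These name CASAVA 1.8.2, Bowtie2 2.1.0, TopHat2 2.0.10, Cufflinks 2.1.1 and build TAIR10. The sources used here do not state the annotation, options, depth or scaling between groups. Without counts, no interval for a level can be given.

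Rows of the 567 repeated identifiers were summed, giving 33559 genes, and no leaf-only gene had repeated rows. Symbols, transcripts and promoters came from RefSeq assembly TAIR10.1 by locus tag (32815 identifiers matched), whose name differs from the authors' build, so its coordinates are given only for sequences printed. The size rule (log2 difference of at least 1 with a pseudocount of 1 FPKM and at least 5 FPKM in the higher group) replaced a test. Its code was checked on simulated data, which says nothing about the unknown spread between libraries. Shared reads were counted as identical stretches of 50 bases. Python 3.11.15, pandas 2.3.3 and numpy 2.4.6 were used.

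The members, roles, gene lists and motifs were chosen with earlier results of these data known, and roles were assigned after the genes were seen. The families counted by annotation were limited to ones that hold leaf-only genes. Genes named were the 15 highest in leaves, all in a gene list, in a neighbouring pair or in a family of at least 3, the 5 nearest each threshold, and others chosen by role after their values were seen.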

Additional observations from a re-analysis of the deposited data

How the results depend on the processing

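The number of leaf-only genes depended on the thresholds. It was 230 at 10 FPKM and 33 at 50 FPKM in leaves, and 69 at a limit of 0.5 FPKM and 203 at a limit of 2 FPKM elsewhere, instead of 111. It was 85 after scaling to the upper quartile and 77 after scaling to equal sums, 101 for coding genes and, in an alternative chosen after seeing the data, 104 without transcripts under 200 nt, all of them among the 111. Repeated identifiers changed nothing. Scaling to the upper quartile gave 2679 genes higher and 5715 lower in leaves than in inflorescences, instead of 4203 and 3807, and moved the counts against the apices by less than 1.5 times. The 666 recomputed log2 differences of the 111 genes stayed past the threshold, an outcome that the values used to choose the genes had fixed and that shows nothing about stability. On the forward strand alone, the W-box share was 24.8%, against 15.4% of the other leaf genes and 15.3% of all coding genes. The core share was 38.6%, against 25.6% and 25.4%, and the TATA box share 42.6%, against 30.7% and 33.3%. TGACG was found in 10.9%, against 10.8% and 9.64%, and the evening element in 1.98%, against 2.80% and 2.58%. In 1000 bases on both strands, chosen after seeing the data, all shares were larger, since a longer window holds more matches. The W-box share was 77.2%, against 67.2% and 67.4%, and the core share 89.1%, against 87.9% and 88.2%. TGACG was found in 58.4%, against 56.2% and 54.1%, and the G-box in 14.9%, against 16.7% and 14.9%. The evening element was found in 23.8%, against 15.7% and 15.4%, and the TATA box in 92.1%, against 81.5% and 83.8%. Neighbouring genes numbered 13 with 1 gene allowed between. No paired analysis was possible because the table holds 1 merged value per group, so leaving out a library was not run either.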
